A study of Homo sapiens with 9 samples.

Results

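The genes described here make up the autophagy and mitophagy machinery: 42 named genes, from the starter kinase ULK1 to the fusion protein STX17, with the cargo receptor gene SQSTM1 (p62) left out of the list. They were found by their symbols in a table of 28307 genes, in which every one of the 42 has a row. The cells were SW620, an established human colon cancer line derived from a lymph node metastasis, labelled wild type and kept floating on non-adhesive plates in a defined medium with N2, insulin, basic FGF and EGF. One group of cultures received streptomycin (SM) at 120 µM and a second received dihydrostreptomycin (DSM) at 120 µM, the dose the design gives as an EC50, and the third was untreated. All cultures were taken at 48 h, with 3 biological replicates per group and therefore 9 poly(A) RNA libraries. SM and DSM are the same aminoglycoside except at one carbon of the streptose sugar, where SM carries an aldehyde and DSM an alcohol. The question put to the data was whether the core machinery moves at all when the p62 gene is set aside.

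Autophagy encloses cytoplasm in a double membrane and delivers it to the lysosome. The ULK complex starts it under the control of mTOR and AMPK, a class III phosphatidylinositol 3-kinase complex marks the site, ATG9 and ATG2 bring lipid, a pair of ubiquitin-like conjugation systems attach ATG8 proteins such as LC3B to the membrane, and receptors hold cargo to those ATG8 proteins. Mitophagy is the form that takes mitochondria, through PINK1 or through receptors in the outer mitochondrial membrane. Much of the machinery is regulated at the level of protein and lipid, so RNA levels report on the supply of its parts and not on the rate of the process.

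Library totals lay between 39315662 and 65562227 counts, and the 42 members together took 0.211% to 0.220% of them. The 3 libraries with replicate number 1 stood apart: within each group they differed from the other libraries by a chi-square per degree of freedom of 23.4 to 35.7, against 6.80 to 8.19 between numbers 2 and 3. Of 12 colon epithelium markers, 8 exceeded 1 CPM (counts scaled to library size), with EPCAM between 414 and 462 CPM, while KRT20, CDX1, LGALS4 and GPA33 were at or near 0 in every library. Fibroblast, leukocyte and endothelial marker sums stayed at or below 26.9, 22.5 and 4.43 CPM in every group, and COL3A1 and DCN were at 0. Other markers of these lists exceeded 1 CPM in every library. They were COL1A1 (7.01 to 13.3 CPM), LUM (4.98 to 13.7), CD68 (12.4 to 22.1) and VWF (1.29 to 3.01).

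In SM cultures 1 of the 41 members that could be tested rose (2.44%, against 2.74% of all genes), PIK3C3, and no member fell; in DSM cultures no member passed the test, nor did any other gene (0%). The PIK3C3 call needed the libraries to be compared within replicate numbers. SQSTM1, the gene left out, is the contrast case: it rose 1.35-fold in SM cultures in the same test. Its call needed that comparison too, as neither gene passed in the main edgeR fit, which does not pair the libraries. These are bulk RNA levels, in which fewer cells of a kind and less RNA per cell cannot be told apart. In the main fit most members lay slightly above untreated cells in SM cultures (85.4%, against 49.7% of all genes). The median member difference there was 0.039 on the log2 scale, against -0.00073 over all genes. The members were chosen with earlier results known, so nothing particular to the list is drawn from these shares. Between replicate numbers 16 members passed the test (39%, against 40.7% of all genes), with OPTN, PINK1, VMP1, TP53INP1 and UVRAG among those with the smallest p.

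The DNA sequence around the start of 5 of these genes is given first. SQSTM1 and PIK3C3 rose in SM cultures when libraries were compared within replicate numbers. MAP1LC3B is the ATG8 gene whose SM and untreated libraries did not overlap, though it did not pass the test. OPTN and VMP1 had the smallest adjusted p between replicate numbers among members with a listed window. Each window is a RefSeq promoter window of GRCh38.p14, from 250 bases before to 50 bases after a listed start site, and for SQSTM1 and OPTN it is the most downstream of 3 and of 2 listed windows. Capitals mark matches on either strand to the motifs described after the sequences.
SQSTM1, chr5:179820655-179820954, + strand: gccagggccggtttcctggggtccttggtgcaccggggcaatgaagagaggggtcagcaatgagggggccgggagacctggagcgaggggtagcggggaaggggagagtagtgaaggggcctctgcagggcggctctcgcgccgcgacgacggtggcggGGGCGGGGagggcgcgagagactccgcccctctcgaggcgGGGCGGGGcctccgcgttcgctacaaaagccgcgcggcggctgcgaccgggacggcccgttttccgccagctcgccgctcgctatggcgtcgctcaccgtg
PIK3C3, chr18:41954984-41955283, + strand: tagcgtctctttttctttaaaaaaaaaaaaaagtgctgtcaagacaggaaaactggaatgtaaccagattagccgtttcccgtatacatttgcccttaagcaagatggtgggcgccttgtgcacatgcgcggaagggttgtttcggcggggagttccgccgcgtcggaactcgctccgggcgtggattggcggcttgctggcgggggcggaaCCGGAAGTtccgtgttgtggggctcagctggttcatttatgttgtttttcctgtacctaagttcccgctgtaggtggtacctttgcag
MAP1LC3B, chr16:87392086-87392385, + strand: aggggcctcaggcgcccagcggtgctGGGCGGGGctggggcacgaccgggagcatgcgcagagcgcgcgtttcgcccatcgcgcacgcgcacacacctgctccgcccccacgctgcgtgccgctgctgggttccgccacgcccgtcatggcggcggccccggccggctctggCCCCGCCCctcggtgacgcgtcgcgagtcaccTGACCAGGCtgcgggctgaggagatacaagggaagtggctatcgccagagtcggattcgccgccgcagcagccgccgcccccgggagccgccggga
OPTN, chr10:13099913-13100212, + strand: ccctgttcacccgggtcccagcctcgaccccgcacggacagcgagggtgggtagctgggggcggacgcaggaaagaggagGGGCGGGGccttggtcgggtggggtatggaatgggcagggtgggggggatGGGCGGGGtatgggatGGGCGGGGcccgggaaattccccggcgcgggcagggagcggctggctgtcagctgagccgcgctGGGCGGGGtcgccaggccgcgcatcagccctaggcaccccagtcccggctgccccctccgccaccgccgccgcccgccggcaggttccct
VMP1, chr17:59707404-59707703, + strand: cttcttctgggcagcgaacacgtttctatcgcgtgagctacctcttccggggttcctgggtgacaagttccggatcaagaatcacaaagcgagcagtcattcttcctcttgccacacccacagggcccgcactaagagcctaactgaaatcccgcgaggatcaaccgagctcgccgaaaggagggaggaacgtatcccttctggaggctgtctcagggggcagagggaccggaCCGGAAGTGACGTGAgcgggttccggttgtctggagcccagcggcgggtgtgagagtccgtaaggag

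The capitals in SQSTM1 and OPTN are GC boxes (GGGCGGGG), 2 in SQSTM1 and 4 in OPTN. PIK3C3 has 1 ETS-type motif (CCGGAAGT), at bases 213 to 220 of its window. MAP1LC3B has 2 GC boxes, 1 of them on the opposite strand as CCCCGCCC, and 1 match to the antioxidant response element core (TGACNNNGC), written TGACCAGGC. VMP1 has an ETS-type motif that shares its last base with a cyclic AMP response element (TGACGTNA). RefSeq windows were found for 35 of the 42 members, and 15 of these (42.9%) held a GC box, against 26.1% of 27305 genes with windows. The ETS-type motif was in 7 (20.0%) against 4.95%, and the cyclic AMP response element in 4 (11.4%) against 3.63%. The antioxidant response element core was in 3 (8.57%), against 16.1% of all genes, and the E-box CACGTG in 4 (11.4%), against 8.77%. The amino acid response motif TGATGNAA was in 0 of 35 members, against 4.46% of all genes. The GC box, ETS-type and cyclic AMP motifs were added after the windows had been read, and all of these shares describe letters within 300 bases on both strands and nothing about binding. The 27305 genes were not limited to those tested here, and the members were not compared with other expressed genes. Nothing particular to the list is drawn from these shares.

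Levels per exon length differed widely within the machinery. In untreated cells PHB2, an inner mitochondrial membrane protein that also serves as a mitophagy receptor, stood highest at 301 CPM per kb, with a range of 279 to 315 over 3 libraries. It was followed by GABARAPL2 at 59.3, ATG101 at 53.6, GABARAP at 43.8 and VMP1 at 41.8 CPM per kb. GABARAPL2 and ATG101 did not overlap, at 58.2 to 60.7 and 52.3 to 54.3, whereas GABARAP and VMP1 overlapped, at 41.1 to 45.9 and 35.8 to 47.1. The lowest tested members were ULK2 at 0.256, TP53INP1 at 0.270 and GABARAPL1 at 0.446 CPM per kb. TP53INP1, at 0.158 to 0.46, overlapped both ULK2, at 0.242 to 0.273, and GABARAPL1, at 0.374 to 0.524, so its place among them is not settled. SQSTM1 itself stood at 127 CPM per kb, above every member except PHB2.

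**Figure D1:**
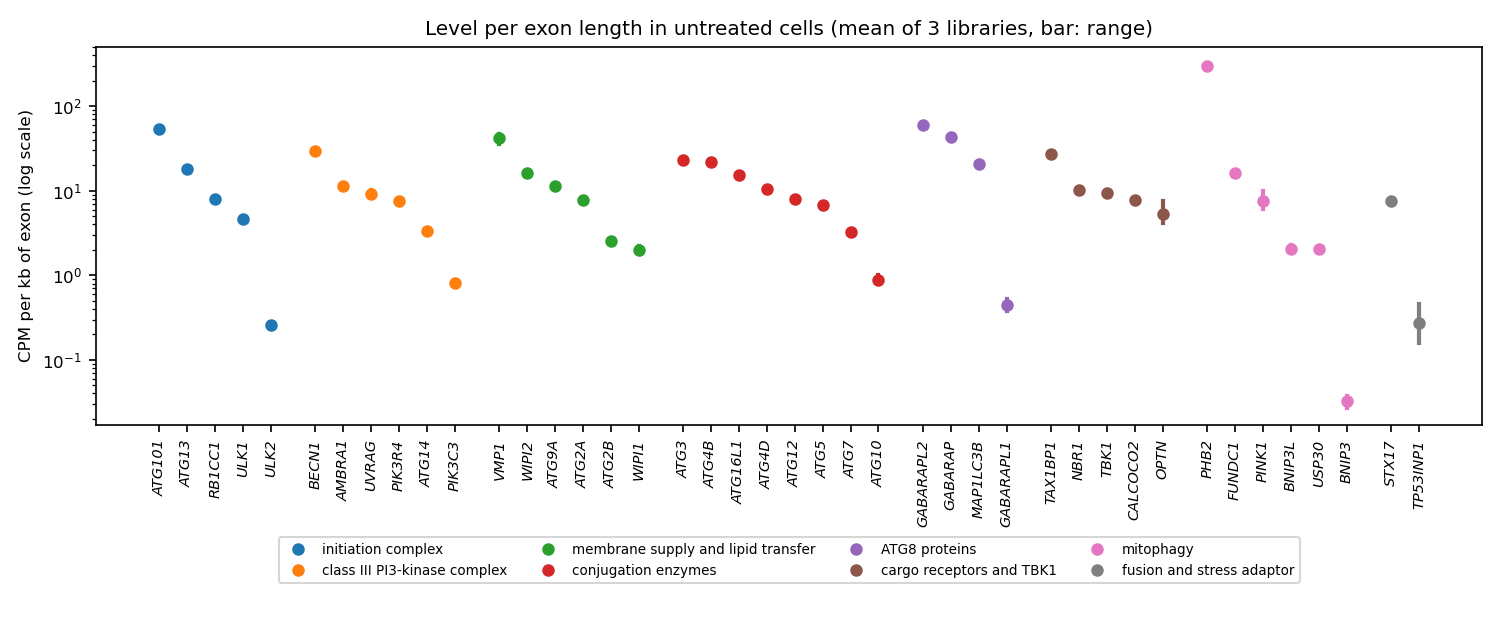
Level of each of the 42 members in untreated cells, grouped by role, as CPM per kb of exon on a log axis; points are means of 3 libraries and bars their range. PHB2 is at the top with 301 CPM per kb and BNIP3 at the bottom with 0.0328.

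BNIP3, which encodes a mitophagy receptor induced by low oxygen, was the member that could not be tested. It had 4, 1 and 4 reads in the SM libraries, 6, 4 and 5 in the DSM libraries and 5, 6 and 6 in the untreated libraries, or at most 0.108 CPM. These counts lie near the floor and no fold change is given. BNIP3 has processed pseudogenes, and how reads that match several places were counted is not given in the sources used here.

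SQSTM1 encodes the receptor that binds ubiquitinated cargo and LC3 and that also holds KEAP1, the inhibitor of NRF2. It had 583.5, 653.6 and 553.4 CPM in SM libraries (replicates 1 to 3) and 444.5, 469 and 415 CPM in untreated libraries. Every SM library lay above every untreated library, and above every DSM library, at 474.6, 458.7 and 462.4 CPM. In edgeR's quasi-likelihood test with Benjamini-Hochberg adjustment over 15619 genes the difference from untreated cells was 0.43 on the log2 scale (SE 0.0389, adjusted p = 2.79e-07) with the replicate number as a block, and 0.43 (SE 0.0648, adjusted p = 0.186) without it. Leaving out the 3 libraries numbered 1 gave 0.45 with the block (adjusted p = 9.06e-08). SM exceeded DSM by 0.36 (SE 0.039, adjusted p = 4.19e-06 with the block, 0.495 without it). For DSM against untreated cells the difference was 0.074 (95% interval -0.0065 to 0.155, adjusted p = 0.999 with the block).

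The members were tested in the same way. Without the block, SM against untreated cells gave 0 of 41 members and 0.0192% of all genes at an adjusted p under 0.05. At an unadjusted p under 0.05 there were 2 of 41 members, PIK3C3 and ULK2, a larger share than the 2.34% of all genes. DESeq2 and limma voom gave 0 members as well. The numbers pair the libraries, so the comparison within numbers is given beside it. With the block 1 of 41 members passed (2.44%), against 2.74% of all genes in either direction and 1.2% higher, a share near the background. In that fit 11 of 41 members had an unadjusted p under 0.05, 10 of them higher and 1, VMP1, lower. This is a larger share than the 14.8% of all genes. The members were chosen with earlier results known, so it is a description.

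PIK3C3 (gene ID 5289, chr18:41955234-42087830 in GRCh38.p14) encodes VPS34, the catalytic subunit that makes phosphatidylinositol 3-phosphate for autophagy and for endosomes. It had 11.88, 12.39 and 11.84 CPM in SM libraries and 9.857, 10.62 and 9.129 CPM in untreated libraries. The SM libraries all lay above the untreated ones, and above the DSM libraries at 9.914, 10.72 and 10.31 CPM. PIK3C3 rose by 0.29 on the log2 scale, or 1.22-fold, in SM cultures (SE 0.068, 95% interval 0.149 to 0.43, adjusted p = 0.0178 in edgeR with the block). Without the block the difference was 0.29 with an adjusted p of 1. Against DSM the difference was 0.22 (interval 0.0831 to 0.366, adjusted p = 0.0686 with the block), and DSM against untreated cells gave 0.065 (interval -0.0767 to 0.206, adjusted p = 0.999). The call rests on few libraries: the adjusted p was 0.0967 without SM replicate 3, 0.093, 0.0664 and 0.247 without untreated replicate 1, 2 or 3, and 0.0791 without the 3 libraries numbered 1.

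**Figure D2:**
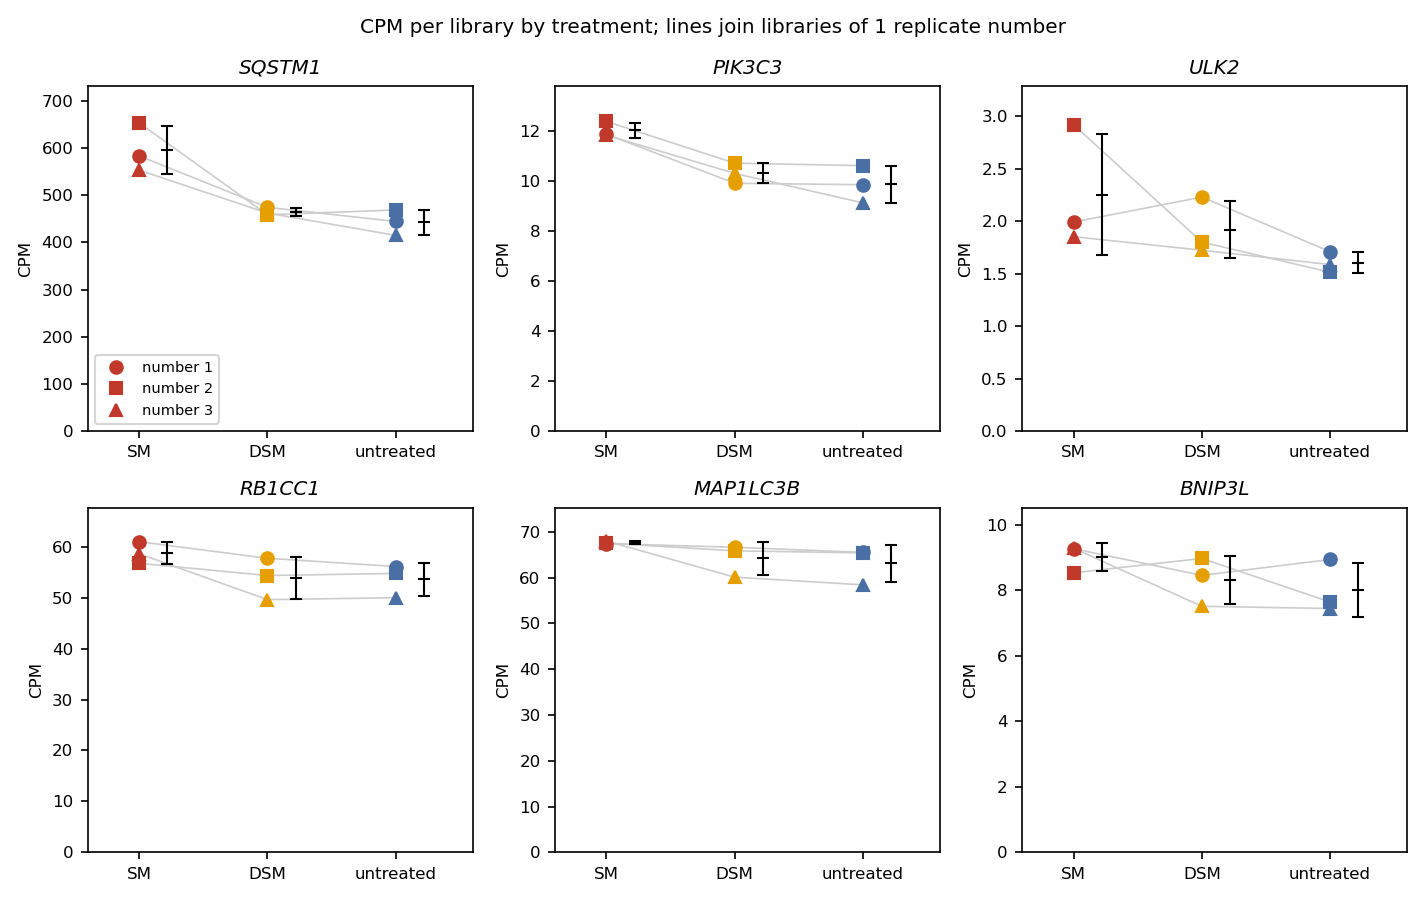
CPM in each library for SQSTM1 and 5 members, by treatment, from 0 on a linear axis; marker shapes give the replicate number, grey lines join libraries of 1 number, and black bars are the group mean and SD of 3 libraries. SQSTM1 at 553.4 to 653.6 CPM and PIK3C3 at 11.84 to 12.39 CPM in SM libraries lie above all DSM and untreated libraries, whereas BNIP3L overlaps between groups.

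The other 5 genes of the class III kinase complex did not pass in any comparison. BECN1, the scaffold subunit, had 62.62, 65.50 and 63.16 CPM in SM libraries and 62.56, 63.30 and 62.11 CPM in untreated libraries, a difference of 0.024 (interval -0.0528 to 0.101). PIK3R4, which encodes the regulatory subunit VPS15, differed by 0.021 (interval -0.0663 to 0.108) and ATG14, the subunit that directs the complex to autophagy, by 0.040 (interval -0.079 to 0.158). UVRAG, which replaces ATG14 in the endosomal form, differed by -0.0030 (interval -0.0956 to 0.0895), and AMBRA1, a positive regulator of the complex, by 0.042 (interval -0.0373 to 0.121). The catalytic subunit's transcript passed the test while those of its partners had intervals that reach neither 1.3-fold up nor down; whether PIK3C3 differs from its partners was not tested.

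In the initiation complex all 5 genes lay above untreated cells in SM cultures and 0 passed, with a median log2 difference of 0.085. ULK1, the kinase that starts autophagy, had 24.74, 26.92 and 27.87 CPM in SM libraries and 24.64, 23.90 and 26.31 CPM in untreated libraries, and these overlap (0.085, interval -0.0205 to 0.191, adjusted p = 0.469 with the block). Its paralog ULK2 had the largest difference of any member. ULK2 had 1.993, 2.921 and 1.853 CPM in SM libraries and 1.710, 1.514 and 1.587 CPM in untreated libraries, so the groups did not overlap, with SM replicate 2 far above the rest. The difference was 0.46 (interval 0.12 to 0.806, adjusted p = 0.159 with the block), and leaving out single libraries moved it between 0.222 and 0.625. RB1CC1, the scaffold FIP200, had 60.96, 56.73 and 58.59 CPM in SM libraries and 56.10, 54.75 and 49.98 CPM in untreated libraries, without overlap (0.14, interval 0.0502 to 0.221, adjusted p = 0.0819). ATG13 and ATG101, the bridging subunits, differed by 0.044 and 0.032.

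Among the 6 genes of membrane supply and lipid transfer, 5 lay above untreated cells in SM cultures and 0 passed. WIPI1, which binds phosphatidylinositol 3-phosphate and is often used as a transcript marker of autophagy, had 5.000, 3.809 and 3.888 CPM in SM libraries and 4.182, 3.892 and 3.354 CPM in untreated libraries, which overlap (0.16, interval -0.0613 to 0.373, adjusted p = 0.535). WIPI2, the paralog that recruits ATG16L1, had 81.25, 87.03 and 81.29 CPM in SM libraries and 76.09, 79.06 and 78.07 CPM in untreated libraries, without overlap (0.097, interval 0.0226 to 0.171, adjusted p = 0.178). VMP1, a lipid scramblase of the endoplasmic reticulum, was the member with a negative difference at an unadjusted p under 0.05: -0.081 (interval -0.159 to -0.00257, adjusted p = 0.317). It had 126.7, 99.88 and 95.10 CPM in SM libraries and 127.8, 115.2 and 97.10 CPM in untreated libraries, and the difference within numbers is mostly in number 2. The scramblase ATG9A and the lipid channels ATG2A and ATG2B differed by 0.040, 0.0056 and 0.076.

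The 8 conjugation enzymes had a median difference of 0.020 in SM cultures, and 0 passed. ATG12, the ubiquitin-like protein joined to ATG5, had 37.16, 39.24 and 35.44 CPM in SM libraries and 34.20, 34.78 and 34.54 CPM in untreated libraries, without overlap (0.11, interval 0.0179 to 0.201, adjusted p = 0.229). Its partners showed little difference: ATG5 0.018, ATG16L1 0.048, ATG7, the activating enzyme, 0.0077, and ATG10, the conjugating enzyme for ATG12, -0.0099. The interval for ATG10, at 3.064 to 4.478 CPM, was wide at -0.287 to 0.267. ATG3, the conjugating enzyme for ATG8 proteins, differed by -0.032, and the proteases ATG4B and ATG4D that process them by 0.034 and 0.022.

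The ATG8 proteins are the membrane tags of the autophagosome, and 0 of 4 passed. MAP1LC3B, the source of LC3B, had 67.41, 67.55 and 67.98 CPM in SM libraries and 65.50, 65.40 and 58.42 CPM in untreated libraries. The groups did not overlap (0.10, interval 0.0207 to 0.186, adjusted p = 0.205), but most of the difference came from number 3. There untreated replicate 3 was low, and so was DSM replicate 3 at 60.09 CPM. GABARAPL2 had 84.10, 89.37 and 81.57 CPM in SM libraries and 82.68, 80.30 and 79.35 CPM in untreated libraries, with overlap (0.072, interval -0.00596 to 0.15). GABARAP had 102.3, 82.69 and 98.79 CPM in SM libraries and 104.0, 93.08 and 100.6 CPM in untreated libraries; it was lower in each of the 3 pairs and the groups overlapped (-0.071, interval -0.145 to 0.00317). GABARAPL1, a target of FOXO factors, had 1.184, 1.955 and 1.163 CPM in SM libraries and 1.119, 1.567 and 1.309 CPM in untreated libraries (0.082, interval -0.299 to 0.463). MAP1LC3B has a near-identical copy, MAP1LC3B2, and GABARAPL1 a related pseudogene, GABARAPL3, so their counts are uncertain where reads could be split.

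All 4 cargo receptors and TBK1 lay above untreated cells in SM cultures, with a median of 0.092 over the 5 genes, and 0 passed. NBR1, the receptor most like p62 in its domains, had 56.13, 55.87 and 54.74 CPM in SM libraries and 52.89, 53.64 and 50.06 CPM in untreated libraries, without overlap (0.092, interval 0.014 to 0.169, adjusted p = 0.237). Its upper bound lies under the lower bound of the SQSTM1 interval, 0.349. TAX1BP1 had 111.7, 103.7 and 111.9 CPM in SM libraries and 102.3, 106.4 and 95.35 CPM in untreated libraries, which overlap (0.11, interval 0.0191 to 0.20, adjusted p = 0.22). TBK1, the kinase that activates receptors, differed by 0.12 (interval 0.0215 to 0.212, adjusted p = 0.215) and CALCOCO2, which encodes NDP52, by 0.065 (interval -0.03 to 0.16). OPTN, a receptor for damaged mitochondria, differed by 0.037 (interval -0.0891 to 0.163).

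Of the mitophagy genes, 5 of 6 could be tested and 0 passed. PINK1, the kinase that marks damaged mitochondria, had 28.07, 16.56 and 16.88 CPM in SM libraries and 26.34, 17.59 and 16.15 CPM in untreated libraries (0.030, interval -0.0849 to 0.144). BNIP3L, the receptor NIX, had 9.268, 8.533 and 9.283 CPM in SM libraries and 8.940, 7.642 and 7.444 CPM in untreated libraries; it was higher in each of the 3 pairs, with overlapping groups (0.18, interval 0.00715 to 0.349, adjusted p = 0.312). FUNDC1, another outer membrane receptor, differed by -0.056 (interval -0.174 to 0.0619), USP30, the deubiquitinase that opposes mitophagy, by -0.031 (interval -0.184 to 0.123) and PHB2 by 0.0042 (interval -0.0652 to 0.0736). STX17, the autophagosome SNARE, differed by 0.0092 (interval -0.0963 to 0.115). TP53INP1, a stress-induced protein that binds ATG8 proteins, had 2.557, 0.965 and 0.5632 CPM in SM libraries and 2.612, 0.8981 and 1.080 CPM in untreated libraries (-0.22, interval -0.609 to 0.166); its libraries differ far more by number than by treatment.

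**Figure D3:**
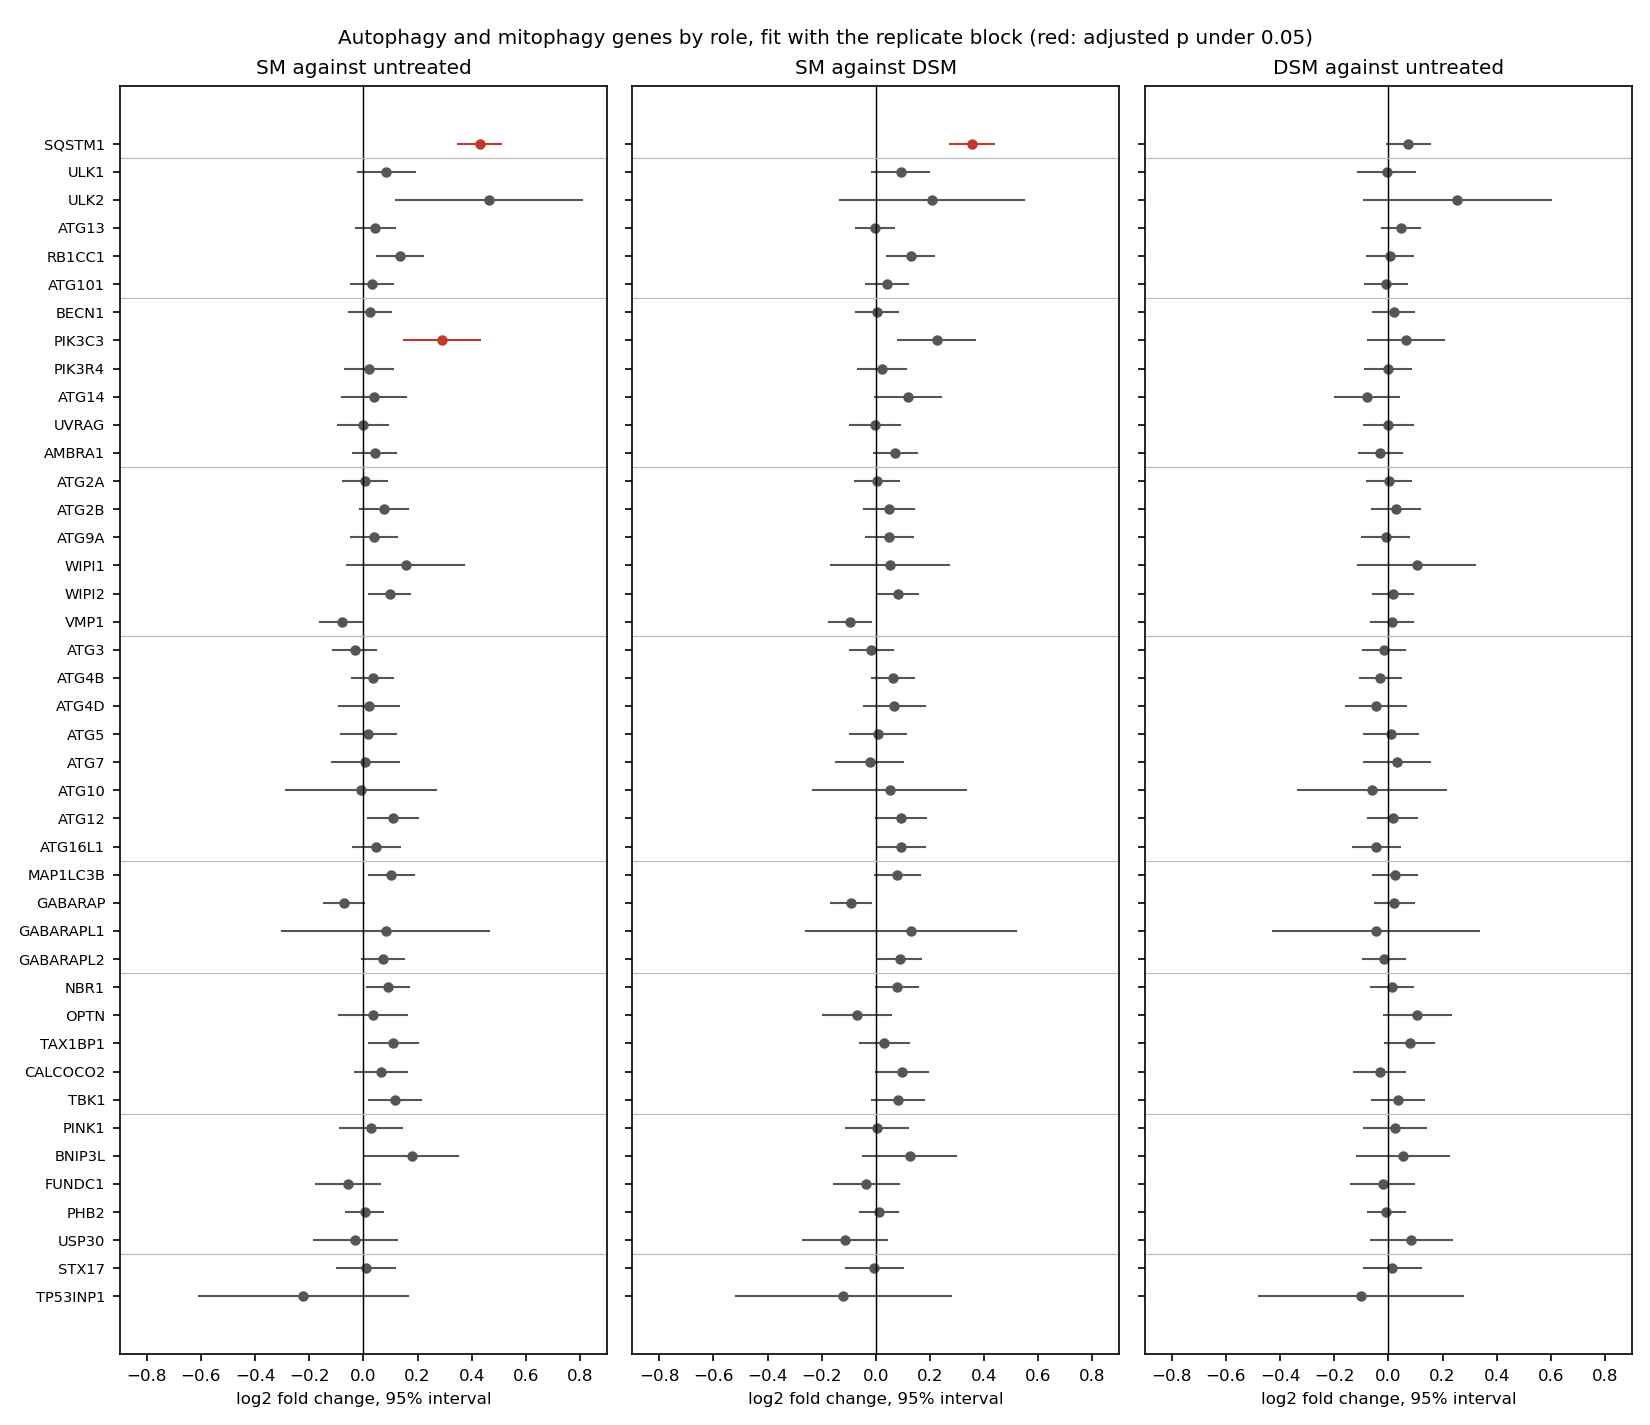
Log2 fold change with its 95% interval for SQSTM1 (top) and the 41 tested members, ordered by role with grey lines between roles, in the 3 comparisons, from the fit with the replicate block; red marks an adjusted p under 0.05. SQSTM1 is red in both SM comparisons, PIK3C3 is red in SM against untreated cells, and no point is red for DSM against untreated cells.

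The size of the movement can be bounded. With the block, the 95% interval of the SM difference lay within 1.3-fold in either direction for 37 of 41 members and within 1.5-fold for 39 of 41. Those that reached past 1.3-fold were PIK3C3, GABARAPL1, ULK2 and TP53INP1, and only ULK2 and TP53INP1 reached past 1.5-fold. Without the block the counts were 31 and 36. Among all genes, 69.2% of intervals lay within 1.3-fold and 78.9% within 1.5-fold with the block.

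As a list, the members were displaced slightly upward in SM cultures. Without the block, 35 of 41 had a positive difference (85.4%), against 49.7% of all genes, and the median was 0.039, against -0.00073 over all genes. With the block, 33 of 41 were positive (80.5%, against 49.4%) with a median of 0.040. The medians within numbers 1, 2 and 3 were 0.0434, 0.0491 and 0.0398, and without the libraries numbered 1 the median was 0.0502 with the block, with 30 of 41 positive. The SM and untreated libraries did not overlap for 7 members (17.1%), all higher in SM, namely ULK2, RB1CC1, PIK3C3, WIPI2, ATG12, MAP1LC3B and NBR1, against 6.73% of all genes in either direction and 3.27% higher. The direction was the same in all 3 pairs for 21 members (51.2%), 18 higher and 3 lower, against 36.3% of all genes, 17.4% higher and 18.9% lower. The members were chosen with earlier results known and share libraries, so these counts are a description, and nothing particular to the list is drawn from them.

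**Figure D4:**
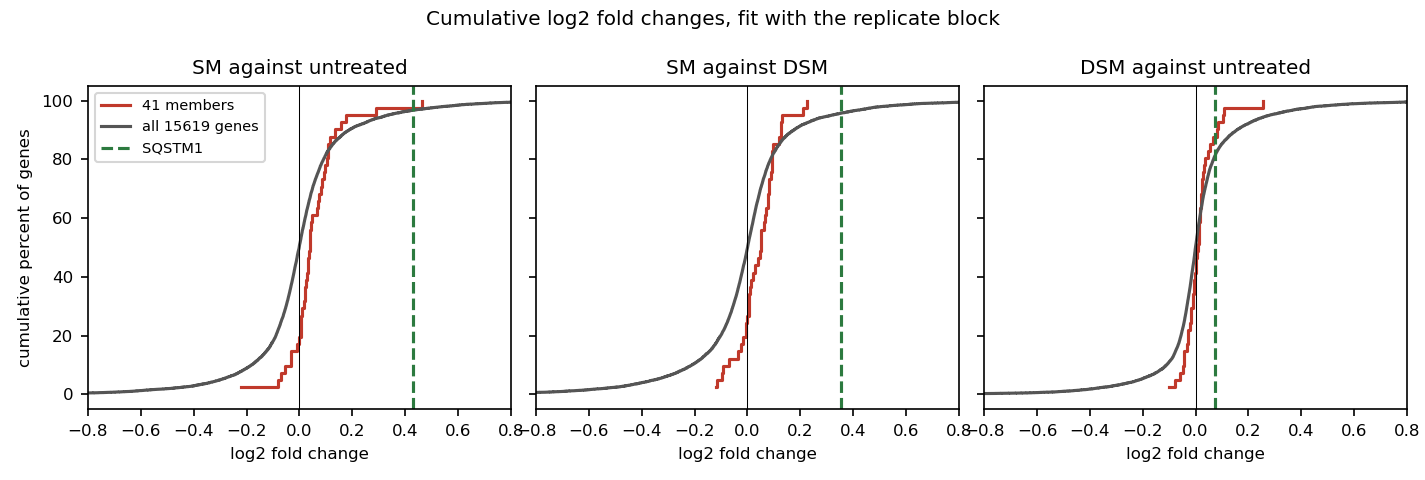
Cumulative percent of genes against log2 fold change for the 41 tested members (red) and all 15619 tested genes (grey), with SQSTM1 as a dashed line, from the fit with the replicate block; the axis is cut at 0.8 in either direction. In SM against untreated cells the members' curve lies to the right of that of all genes at its middle, with medians of 0.040 and -0.00091, while SQSTM1 lies at 0.43.

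In DSM cultures the machinery was close to untreated cells. With edgeR 0 of 41 members passed, with and without the block, and so did 0% of all genes; at an unadjusted p under 0.05 there were 0 members in either fit, against 103 genes without the block and 650 with it, and DESeq2 and limma voom also gave 0 members. With the block, 23 of 41 differences were positive (56.1%, against 49.6% of all genes) and the median was 0.0094. The direction was the same in all 3 pairs for 10 members (24.4%), against 29.5% of all genes. With the block, intervals lay within 1.3-fold for 38 of 41 members, against 72.1% of all genes, and within 1.5-fold for 40, against 80.4%. The smallest p with the block was that of TAX1BP1, with 116.1, 107.0 and 98.39 CPM in DSM libraries and 102.3, 106.4 and 95.35 CPM in untreated libraries, which overlap (0.079, interval -0.0107 to 0.169, adjusted p = 0.999). The largest difference, and the smallest p without the block, was that of ULK2, with 2.231, 1.802 and 1.724 CPM in DSM libraries and 1.710, 1.514 and 1.587 CPM in untreated libraries. ULK2 was the 1 member whose DSM and untreated libraries did not overlap (2.44%, against 4.42% of all genes), and its difference was 0.255 (interval -0.0894 to 0.599, adjusted p = 0.999 with the block), which moved between 0.116 and 0.38 when single libraries were left out.

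The ATG8 genes in DSM libraries had 66.62, 65.84 and 60.09 CPM for MAP1LC3B, with a difference from untreated cells of 0.025 (interval -0.0576 to 0.107). GABARAP had 105.1, 92.44 and 104.9 CPM (0.022, interval -0.051 to 0.0956). GABARAPL2 had 81.90, 77.60 and 80.15 CPM (-0.016, interval -0.0935 to 0.062). All of these overlap the untreated libraries. GABARAPL1 had 1.385, 1.290 and 1.161 CPM (-0.047, interval -0.426 to 0.333). PINK1 had 26.36, 17.20 and 17.42 CPM (0.025, interval -0.0883 to 0.138) and ULK1 25.19, 23.46 and 25.84 CPM (-0.0066, interval -0.112 to 0.0985). BNIP3L had 8.456, 8.972 and 7.511 CPM (0.053, interval -0.117 to 0.223), WIPI1 4.354, 3.927 and 3.973 CPM (0.104, interval -0.111 to 0.319) and TP53INP1 2.429, 0.9295 and 0.9253 CPM (-0.102, interval -0.479 to 0.276).

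SM and DSM were compared at the same dose and time, so this comparison sets the aldehyde against the alcohol. With edgeR 0 of 41 members passed, with the block (3.88% of all genes) and without it (0%), and DESeq2 and limma voom gave 0 members too. At an unadjusted p under 0.05 there were 9 of 41 members with the block, 7 higher and 2 lower in SM. This is a larger share than the 16.2% of all genes. Without the block there was 1 of 41, against 2.54% of all genes. The smallest p and the largest difference were those of PIK3C3, given above. With the block, intervals lay within 1.3-fold for 38 members, against 68.3% of all genes, and within 1.5-fold for all 41 tested, against 78.1%. The median difference in that fit was 0.050, against -1.4e-05 over all genes. SM libraries lay above DSM libraries without overlap for PIK3C3, MAP1LC3B, NBR1 and WIPI2, 4 of 41 (9.76%), against 3.41% of all genes higher in SM and 6.56% in either direction. The direction was the same in all 3 pairs for 15 members (36.6%), against 32.5% of all genes. The members with a lower SM level at an unadjusted p under 0.05 were GABARAP (-0.093, interval -0.167 to -0.0188, adjusted p = 0.177) and VMP1 (-0.095, interval -0.173 to -0.0168, adjusted p = 0.195). RB1CC1 differed by 0.13 (interval 0.0428 to 0.214, adjusted p = 0.0882). The SM comparisons share the SM libraries and those with untreated cells share the untreated libraries, so agreement between them is not independent. Within each number the mean log2 CPM of the 41 tested members was highest in the SM library, at 4.9461, 4.893 and 4.8337. The DSM library came next, at 4.9146, 4.8486 and 4.7975, and the untreated library was lowest, at 4.9057, 4.8328 and 4.7833. Within each group, numbers 1 and 3 differed by more than any groups did within a number. The order of these means was not tested, and no mean over all genes is set beside it.

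The same 41 members were tested for a difference between replicate numbers, in the fit that holds group and number. What cultures of 1 number share is not given in the labels. Here 16 members passed (39%), against 40.7% of all genes, so the members vary with number about as often as other genes. Of the 16, 9 were higher and 7 lower in number 1 than in numbers 2 and 3.

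OPTN had 30.44 to 32.15 CPM in the 3 libraries numbered 1 and 15.80 to 20.07 CPM in the other 6 (adjusted p = 5.08e-11 in edgeR). PINK1 had 26.34 to 28.07 CPM in the libraries numbered 1 and 16.15 to 17.59 CPM in the other 6 (adjusted p = 2.94e-10). TP53INP1 had 2.429 to 2.612 CPM in the libraries numbered 1 and 0.5632 to 1.080 CPM in the other 6 (adjusted p = 1.15e-07). Each of the 3 genes separated number 1 from the others in every treatment, and their treatment differences were small beside that. VMP1 had 126.7 to 127.8 CPM in the libraries numbered 1 and 95.10 to 115.2 CPM in the other 6 (adjusted p = 1.07e-07). UVRAG had 50.87 to 53.74 CPM in the libraries numbered 1 and 41.42 to 45.35 CPM in the other 6 (adjusted p = 2.62e-05). GABARAP overlapped, at 102.3 to 105.1 CPM in the libraries numbered 1 and 82.69 to 104.9 CPM in the other 6 (adjusted p = 6.86e-05). All 3 libraries numbered 1 lay above the other 6 for 8 members (19.5%), against 16.7% of all genes. They lay below them for PHB2, ATG2A and ATG2B, 3 members (7.32%), against 15.5%. PHB2 had 412.2 to 435.3 CPM in the libraries numbered 1 and 462.1 to 487.6 CPM in the other 6 (adjusted p = 0.000523).

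**Figure D5:**
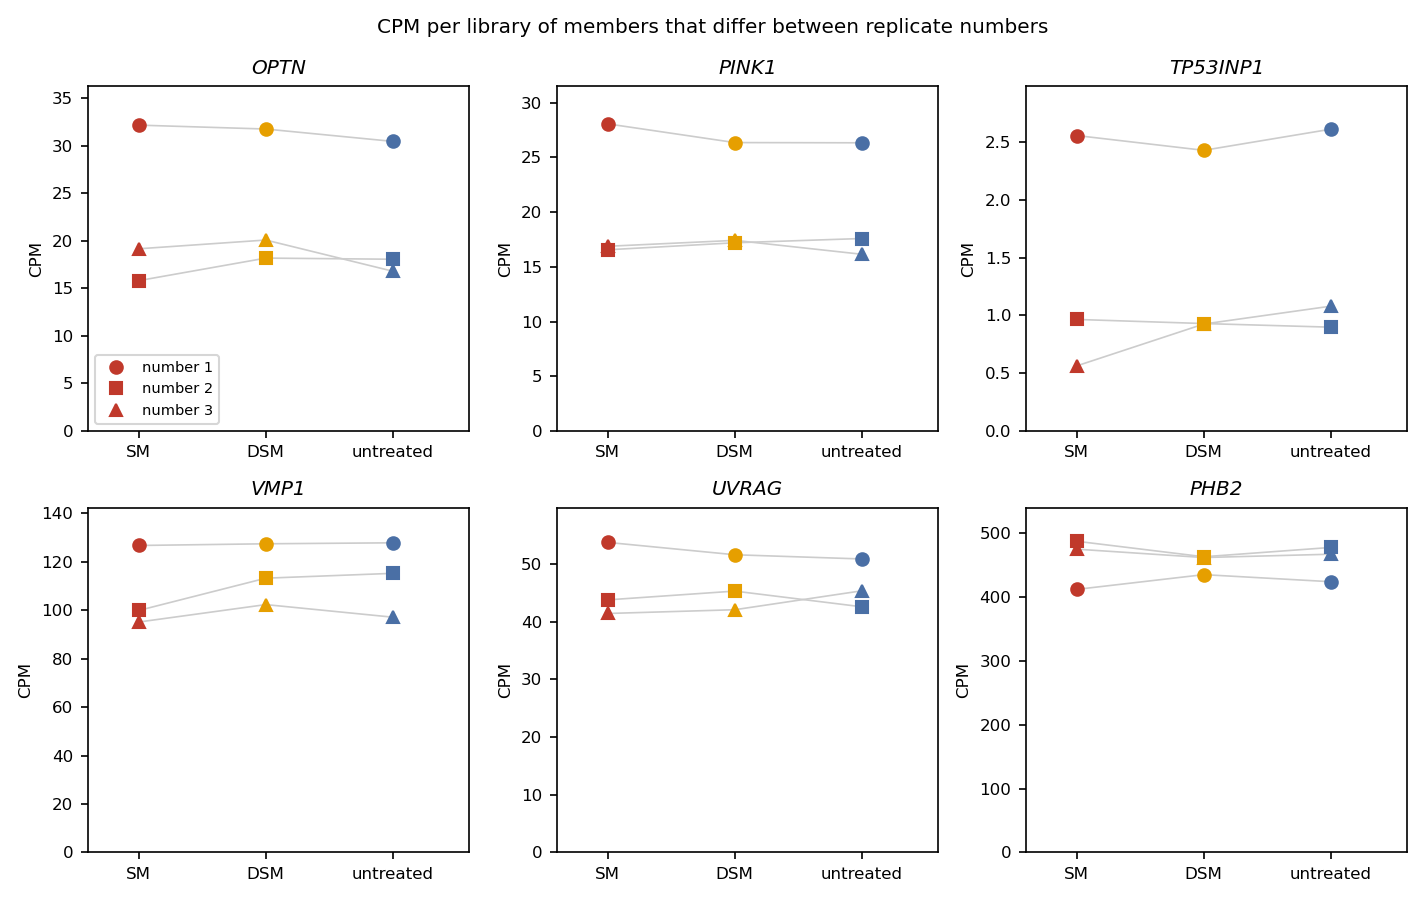
CPM in each library for 6 members that passed the test of replicate number, by treatment, from 0 on a linear axis, with marker shapes for the number and grey lines joining libraries of 1 number. The circles of number 1 lie above the other 6 libraries for OPTN, PINK1, TP53INP1, VMP1 and UVRAG and below them for PHB2, in all 3 treatments.

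A wider list of 98 genes besides SQSTM1 was in the table, and 96 were tested. It held other core genes, fusion factors, selective receptors, further mitophagy genes and regulators. The regulators include stress-induced genes such as SESN2 and CHAC1, so this is not a list of autophagy genes alone. It was chosen with earlier results known, so its shares are a description. Without the block 0 passed in any of the 3 comparisons in edgeR. With the block 5 of 96 passed for SM against untreated cells (5.21%, against 2.74% of all genes), 4 higher and 1 lower, and the median difference was 0.012. For DSM against untreated cells 0 passed. For SM against DSM 6 of 96 passed (6.25%, against 3.88% of all genes), 5 higher and 1 lower.

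The called genes of the wider list were mostly regulators. SESN2, a leucine sensor that restrains mTOR complex activity and is a target of ATF4 and NRF2, had 11.64, 36.24 and 33.64 CPM in SM libraries and 9.018, 27.10 and 22.12 CPM in untreated libraries. SM was higher within every number although the groups overlapped, and SESN2 rose by 0.48 (SE 0.065, adjusted p = 6.81e-05 in edgeR with the block). Its relative SESN3, a FOXO target, had 20.17, 12.82 and 14.02 CPM in SM libraries and 29.21, 17.34 and 17.93 CPM in untreated libraries. SESN3 fell by 0.45 on the log2 scale (SE 0.058, adjusted p = 3.54e-05), the opposite direction to SESN2. TFE3, a transcription factor of lysosomal and autophagy genes, rose by 0.157, with 98.30, 101.5 and 94.16 CPM in SM libraries and 90.10, 87.92 and 85.39 CPM in untreated libraries, without overlap (adjusted p = 0.0157). EPG5, a tether for fusion with the lysosome, rose by 0.247 (adjusted p = 0.0219), with 17.56, 18.74 and 16.10 CPM in SM libraries and 13.88, 15.53 and 14.69 CPM in untreated libraries. WDR45, a paralog of the WIPI proteins, rose by 0.172 (adjusted p = 0.0242), with 39.42, 46.73 and 42.44 CPM in SM libraries and 36.05, 39.71 and 38.12 CPM in untreated libraries. The calls of TFE3, EPG5 and WDR45 were each lost when single libraries were left out, with an adjusted p of up to 0.203, 0.279 and 0.198, and those of SESN2 and SESN3 held in all 9 such fits.

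Against DSM, SM was higher for SESN2 by 0.67 (adjusted p = 1.06e-06 in edgeR with the block), TFE3 by 0.171 (adjusted p = 0.00635), EPG5 by 0.244 (adjusted p = 0.0212), FOXO3 by 0.151 (adjusted p = 0.0226) and CHAC1 by 0.73 (adjusted p = 0.025), and lower for SESN3 (-0.42, adjusted p = 9.45e-05). FOXO3, a transcription factor that drives several autophagy genes, had 75.42, 82.38 and 82.86 CPM in SM libraries and 64.20, 79.18 and 74.04 CPM in DSM libraries. CHAC1, a glutathione-degrading enzyme induced by ATF4, had 7.031, 38.22 and 39.77 CPM in SM libraries and 5.829, 24.51 and 19.43 CPM in DSM libraries. Both overlapped between groups, with SM higher within every number. When single libraries were left out, the adjusted p reached 0.177 for FOXO3, 0.163 for CHAC1, 0.131 for EPG5 and 0.0715 for TFE3, all above 0.05, whereas SESN2 and SESN3 held in all 9 such fits. SESN2 and CHAC1 had their lowest 3 libraries among those numbered 1, with SESN2 at 8.996 to 11.64 CPM in the libraries numbered 1 and 18.52 to 36.24 CPM in the other 6. In the test of replicate number 43 of 96 genes of the wider list passed (44.8%), against 40.7% of all genes.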

How the data were processed

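The authors deposited raw read counts per gene for 9 libraries, with no normalization, and these counts were used; a deposited normalized table was not used. Per the labels' protocols, TRIzol RNA went into NuGEN Universal Plus mRNA-seq libraries. The submitters' processing notes list TopHat2 2.1.1 and featureCounts 2.0.0 among their tools, and build hg38. The sources used here do not give the annotation, the strand setting or the counting of reads with several matches, which leaves overlapping genes and near-identical copies uncertain.

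Counts were tested in R 4.3.3 with edgeR 4.0.16 (TMM, filterByExpr with minimum count 10 and minimum total 15, robust quasi-likelihood F tests, two-sided, group as the only term, all 9 libraries, Benjamini-Hochberg over 15619 genes, threshold 0.05); 41 of 42 members passed the filter. CPM values are TMM-scaled, and log2 CPM used a prior count of 2. Replicate numbers come from the labels and pair the libraries. Correlations of deviations from group means were 0.227 to 0.582 for 9 same-numbered pairs and -0.404 to 0.161 for 18 others. Much of that gap lies with number 1. Same-numbered pairs gave 0.531 to 0.582 in number 1 and 0.227 to 0.342 in numbers 2 and 3. Pairs joining number 2 to number 3 gave 0.104 to 0.161. A fit with the number as a block is given beside the main one, and the intervals by gene are from that blocked fit. Alternatives used DESeq2 1.42.0, limma 3.58.1, other scalings and filters, and libraries left out. Repeating the scalings, filters, robust estimation and choice of groups with the block, leaving out the libraries numbered 1 without the block and in the test of replicate number, and the counts of positive differences and of all genes called were chosen after seeing the data. Scripts were tested on simulated data.

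Levels per kb divide CPM by GENCODE 29 exon length, and promoter windows are from RefSeq. The members and lists were chosen with earlier results of these data known. Statistics are given for members called in any fit, for the smallest p and largest change where none was, and for 10 members whatever their call, with up to 8 called genes per comparison from the wider list and the 6 called members with the smallest adjusted p for replicate number; the other members are named with their differences by role. Members whose groups do not overlap were given values after those were seen.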

Additional observations from a re-analysis of the deposited data

How the results depend on the processing

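The count of members called was 0 without the block in each of the 3 comparisons under every planned scaling, filter, test and left-out library. With the replicate block the count for SM against untreated cells was 1 (PIK3C3), and it was 1 as well under every scaling, filter and test run with the block, 0 with no replicate block, 0 to 3 over the 9 fits without single libraries and 0 without the 3 libraries numbered 1. The 3 were PIK3C3, RB1CC1 and TAX1BP1, without SM replicate 2. For SM against DSM the count with the block was 0 to 1 over those fits. The block changed no other member's call. The number of all genes called for SM against untreated cells was 3 without the block, 14 in DESeq2 and 428 with the block, 701 with the block and no filter, and 73 without the libraries numbered 1 and without the block; for SM against DSM that last setting gave 186 genes against 0. Without single libraries the blocked counts ran from 149 to 569 genes for SM against untreated cells (428 with all) and from 265 to 846 for SM against DSM (606 with all), so the shares of all genes given beside the members move with them. For DSM against untreated cells 0 genes passed with or without the block, and in each fit without a single library. With the block, 7 passed with no filter, 4 with only the 2 groups compared and 1 without the 3 libraries numbered 1.

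The median member difference for SM against untreated cells was 0.0393, 0.0447 under library totals and 0.0313 to 0.0657 without single libraries; it was 0.0482 without the 3 libraries numbered 1 and 0.0502 with the block as well. For DSM against untreated cells it was -0.00881 to 0.0377 without single libraries, and for SM against DSM 0.0339 to 0.0644. Members called by replicate number were 2 without number 1, against 16 with it, and ranged from 12 to 18 without single libraries.

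Among the members recomputed under every alternative, reversed signs, none of a called gene, were those of PINK1 (-0.26 to 0.284 without single libraries, -0.0155 to 0.0674 with the block, -0.0104 without number 1 and -0.00849 with the block as well), GABARAP (-0.127 to 0.0197), GABARAPL1 (-0.179 to 0.226, and -0.105 to 0.176 with the block), TP53INP1 (-1.04 to 0.469), VMP1 (-0.217 to 0.0145) and, for SM against DSM with the block, ULK2 (-0.0356 to 0.37). Between the fits without and with the block, UVRAG (0.0017 and -0.0030) and ATG10 (0.0020 and -0.0099) changed sign for SM against untreated cells, and UVRAG also in the other comparisons. The cause was not tested. The tested members that average under 5 CPM (ULK2, GABARAPL1, TP53INP1, ATG10 and WIPI1) have the widest intervals for SM against untreated cells with the block.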
